A study of Mus musculus with 13 samples.

Results

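The 9 genes described here are the hedgehog ligand of cartilage, its receptors and binding proteins, and the GLI transcription factors: Ihh, Ptch1, Smo, Gas1, Boc, Hhip, Gli1, Gli2 and Gli3. They were taken by symbol from a deposited table of 18748 genes, and all 9 were present with enough counts to be tested. Messenger RNA came from the mandibular condylar cartilage, the cartilage that caps the lower jaw where it meets the skull. The groups were 7 libraries from young mice of 2 months and 6 from aged mice of 18 months. Strain, genotype, sex and any treatment are not given in the sources used here. Nor do the labels say whether each library came from 1 animal, so the p-values measure the spread between these libraries, part of which may be technical.

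Indian hedgehog, encoded by Ihh, is secreted by chondrocytes that are about to become hypertrophic. In growth cartilage it promotes proliferation of neighbouring chondrocytes, directs bone formation in the adjoining perichondrium, and sustains parathyroid hormone-related protein (PTHrP, gene Pthlh), which in turn delays hypertrophy. The ligand binds the receptor PTCH1 with the help of co-receptors such as GAS1 and BOC, which releases the transducer SMO at the primary cilium. GLI2 and GLI3 then act less as repressors and more as activators. Ptch1, Gli1 and Hhip are transcribed in answer to the signal, and the PTCH1 and HHIP proteins bind the ligand and limit its reach.

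Per library, the deposited counts summed to between 17531694 and 18203443 in young and between 16356839 and 17876681 in aged mice, with a lower mean in the aged (two-sided exact permutation p = 0.00583). Chondrocyte markers were present, with Col2a1 at 11189 TPM (a unit scaled for transcript length and library size) in young and 3205 TPM in aged libraries. Sox9 stood at 42.9 and 49.1 TPM. Col1a1, listed with the fibrous layer, was above Col2a1 at each age, at 37369 and 10520 TPM. Bone markers were present too. Bglap, which encodes osteocalcin and has near-identical neighbours that may share its reads, stood at 27051 and 6724 TPM, also above Col2a1. Below, cartilage means the tissue as labelled, with the other cell types it held. Of all genes tested, 21.6% were called lower and 24.7% higher in aged libraries, and the marker counts stand beside these shares. All 5 osteoblast and all 5 osteoclast markers were lower in aged libraries, as were 4 of 5 hypertrophic, 3 of 6 chondrocyte and 2 of 5 fibrous layer markers. Those 2 were Col1a1 and Postn, while Scx (log2 change 0.29), Tnmd (0.34) and Thy1 (0.077) lay above 0 and were not called. The fourth hypertrophic call, Spp1, had an edgeR adjusted p of 0.0499, and only 3 markers were called with library sizes alone and in 10 of the 13 fits that left out 1 library. The chondrocyte marker, Comp, a matrix protein also made by tendon, was higher (log2 change 1.02, edgeR adjusted p = 0.000232). The osteoblast markers summed to between 7684 and 9828 CPM (counts scaled to library size) in young and between 3566 and 6481 CPM in aged libraries. Of the superficial zone markers, 3 of 4 were higher. Markers of cells from outside cartilage and bone did not all move one way. Of the endothelial markers 1 of 4 was lower and 0 higher, and of the macrophage markers 2 of 4 were lower and 1 higher. The adipocyte markers had 2 of 3 tested higher and the Schwann cell markers 3 of 4, with 0 lower in either list. The summed level of 8 erythroid markers, all called higher, ran from 28.5 to 200 CPM in young and from 420 to 1593 CPM in aged libraries. Neutrophil markers, 7 of 8 called higher, summed to between 552 and 1770 CPM in young and between 1144.5 and 5414 CPM in aged libraries. Skeletal muscle markers, 7 of 9 called higher, summed to between 463 and 4255 CPM in young and between 3409 and 12945 CPM in aged libraries. Among the markers of all 13 cell types examined, only the adipocyte gene Plin1 was at 0 in any library, a single young one. In bulk tissue, fewer cells of a type and less RNA per cell cannot be told apart.

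Levels of the members can be compared with one another per transcript length, as TPM. Ihh was the highest in young cartilage at 127 ± 32.5 TPM (SD, n = 7), above Smo at 96.2 ± 7.22 TPM in each of the 7 libraries, although their ranges overlapped. Smo, Ptch1 at 89.6 ± 22.2 TPM and Gas1 at 75.9 ± 10.1 TPM followed in an order that changed between libraries. Below them came Gli1 at 53.3 ± 5.11 TPM, Boc at 40.3 ± 4.41 TPM, Hhip at 24.8 ± 7.65 TPM, Gli3 at 13.5 ± 1.68 TPM and Gli2 at 9.59 ± 0.940 TPM, and each exceeded the next in 7 of 7 young libraries. In aged cartilage Ihh was again highest by its mean, at 103 ± 29.8 TPM (SD, n = 6), but exceeded the next gene, Ptch1, in only 4 of 6 libraries. Ptch1 at 85.3 ± 21.1 TPM, Smo at 85.0 ± 15.7 TPM, Gas1 at 63.8 ± 5.03 TPM, Gli1 at 49.7 ± 15.1 TPM and Boc at 33.5 ± 6.99 TPM followed, and each of these neighbours overlapped in range. Hhip changed place, falling from 24.8 to 10.2 ± 3.10 TPM, under Gli3 at 11.7 ± 2.79 TPM, and it was below Gli3 in 4 of 6 aged libraries. Gli2 remained lowest by its mean, at 7.54 ± 2.67 TPM.

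The comparison of aged with young libraries asks which of these genes differ with age. Of the 9 members, 6 (66.7%) were lower in aged cartilage and 0 were higher, by edgeR's quasi-likelihood test on counts scaled between libraries by the trimmed mean of M values (TMM), with a Benjamini-Hochberg adjusted p under 0.05 over all 14067 genes tested. No member was higher at an unadjusted p under 0.05 either, and DESeq2 called the same 6 lower and 0 higher. The 6 were the inhibitor Hhip, the transducer Smo, the co-receptors Gas1 and Boc, and the factors Gli2 and Gli3. Across all genes tested 46.2% were called, 21.6% lower and 24.7% higher, which is 3033 and 3471 genes. With library sizes alone, in place of TMM, the split of all genes was 1253 lower and 7034 higher, and 1 member was lower. The median log2 fold change of the 9 members was −0.32, beside 0.014 for all genes. Hhip alone had no overlap between the ages, a separation that 19.2% of all tested genes showed.

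**Figure D1:**
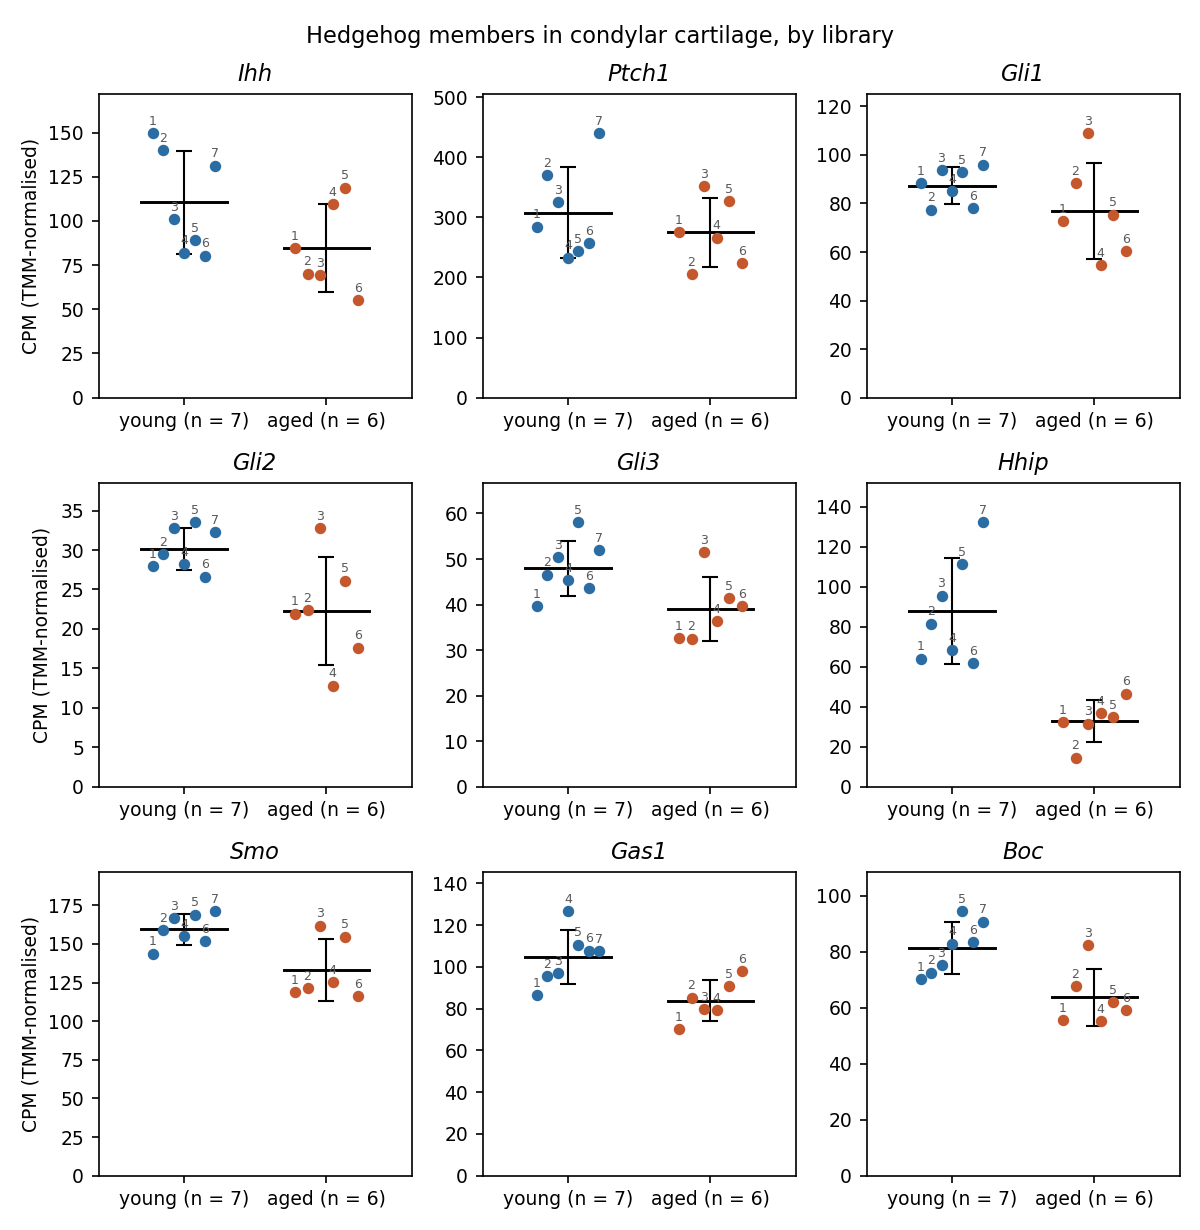
TMM-normalised CPM (vertical axes, from 0, a scale per gene) of the 9 members in 7 young (blue) and 6 aged (orange) libraries. Points are libraries with their replicate numbers, lines are means and bars are SD. Hhip is the only member whose 2 ages do not overlap, and aged replicate 3 lies at the top of its age for Ptch1, Smo, Boc and the 3 GLI genes.

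The ligand gene Ihh (gene ID 16147) ranged from 80.3 to 150 CPM in young libraries, with a median of 101 CPM. In aged libraries it ranged from 55.1 to 119 CPM, with a median of 77.4 CPM. Young replicates 1, 2 and 7 were the high ones, and 3 of the 6 aged libraries lay under the lowest young library. The log2 change of −0.39 ± 0.20 (SE) did not pass the test (edgeR adjusted p = 0.136), and its 95% confidence interval ran from −0.82 to 0.049. 

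The receptor gene Ptch1 (gene ID 19206), which is also a target of the signal, was measured at 233 to 440 CPM in young libraries, median 284 CPM. Its aged libraries spanned 205 to 352 CPM, median 271 CPM. Only 2 of 6 aged libraries were under the lowest young one, and the young libraries themselves were spread widely. Its log2 change of −0.16 ± 0.17 (SE) did not pass either (edgeR adjusted p = 0.446; 95% confidence interval −0.52 to 0.19), and it was above 0 with library sizes alone (0.069).

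Smo (gene ID 319757) encodes the membrane protein that passes the signal on. It ranged narrowly, from 144 to 171 CPM with a median of 159 CPM, in young libraries. In aged libraries it ran from 116 to 162 CPM with a median of 123 CPM. Aged replicates 3 and 5 stood within the young range and the other 4 fell below it. The log2 change was −0.26 ± 0.085 (SE, edgeR adjusted p = 0.0208).

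Gas1 and Boc encode surface proteins that present the ligand to PTCH1. Gas1 (gene ID 14451) went from 86.5 to 127 CPM, median 108 CPM, in young libraries to 70.1 to 97.9 CPM, median 82.5 CPM, in aged ones. All 6 aged libraries were below the young median and 4 were below every young library. Its log2 change was −0.32 ± 0.092 (SE, edgeR adjusted p = 0.0110). Boc (gene ID 117606) stood at 70.1 to 94.4 CPM, median 82.9 CPM, in young libraries. Its aged values were 55.1 to 82.3 CPM, median 60.5 CPM, and only aged replicate 3 reached the young range. The log2 change of Boc was −0.35 ± 0.10 (SE, edgeR adjusted p = 0.0102).

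Hhip (gene ID 15245), whose product binds hedgehog ligands at the cell surface, had the largest age difference among the members. Young libraries held 61.6 to 132 CPM with a median of 81.4 CPM. Aged libraries held 14.5 to 46.5 CPM with a median of 33.5 CPM, so the highest aged library was under the lowest young one. The log2 change was −1.42 ± 0.25 (SE, edgeR adjusted p = 0.000412), a mean level 2.68-fold lower with a 95% confidence interval from −1.95 to −0.90 on the log2 scale. Of all genes tested, 1.26% had a lower fold change than Hhip. Leaving out any 1 library kept its value between −1.56 and −1.28. In a model holding both the blood-cell and the muscle marker scores given further down, it was −0.65 (adjusted p = 0.659). That model called only 53 of the 14067 genes tested.

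The GLI factors bind DNA and carry out the transcriptional response. Gli1 (gene ID 14632), the activator that is itself induced by the signal, spanned 77.4 to 96.0 CPM, median 88.3 CPM, in young libraries. It spanned 54.6 to 109 CPM, median 74.1 CPM, in aged ones, where 4 libraries were under every young one and aged replicate 3 was above every young one. It was not called (log2 change −0.19 ± 0.13, SE, edgeR adjusted p = 0.272; 95% confidence interval −0.47 to 0.099), and without aged replicate 3 it was (−0.32, adjusted p = 0.0249). With library sizes alone its value was 0.043.

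Gli2 (gene ID 14633), the main activator at the start of the response, had the lowest mean TPM at each age. It lay between 26.6 and 33.5 CPM, median 29.5 CPM, in young libraries and between 12.8 and 32.8 CPM, median 22.2 CPM, in aged ones, where all but replicate 3 were below the young range. Gli3 (gene ID 14634), best known as the repressor, lay between 39.7 and 58.1 CPM, median 46.6 CPM, in young libraries. In aged ones it lay between 32.5 and 51.5 CPM, median 38.0 CPM. The fold changes were −0.44 ± 0.16 for Gli2 and −0.30 ± 0.11 for Gli3 (log2, SE, edgeR adjusted p = 0.0419 and 0.0424). Each lost its call in 10 of the 13 fits that left out 1 library (adjusted p up to 0.0847 and 0.0884), so that 4 to 7 members were called there. Gli2 kept it when young replicate 6 or aged replicate 3 or 5 was left out, and Gli3 when young replicate 1 or 6 or aged replicate 3 was.

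Apart from Hhip, the called members had log2 changes between −0.44 and −0.26. The TMM factors ran from 0.903 to 0.957 in young and from 1.04 to 1.16 in aged libraries, without overlap. With library sizes in place of TMM factors the median log2 change of all genes moved by 0.23, and Hhip was then the only member called (log2 change −1.19). On the authors' TPM scale 2 of the 9 members were called lower, Hhip and Gas1, beside 2211 of all 14067 genes.

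**Figure D2:**
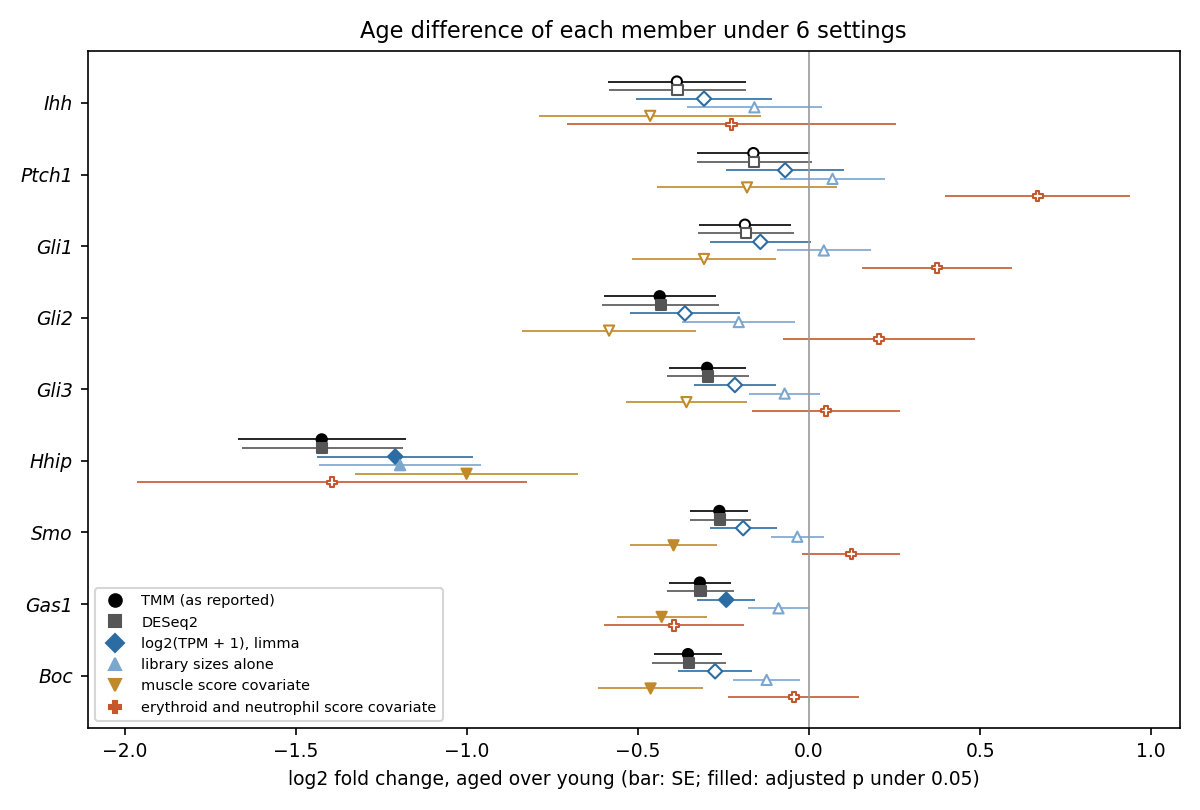
Log2 fold change, aged over young (horizontal axis; bars are SE), of each member under 6 settings; filled symbols had an adjusted p under 0.05. Hhip lies farthest to the left in each of the 6 settings shown. With library sizes alone (pale triangles) every member, Hhip included, shifts to the right, and Ptch1 and Gli1 cross 0. With the erythroid and neutrophil score in the model (crosses) 5 members lie above 0.

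Ratios of 2 genes within a library do not depend on how libraries are scaled, and 6 were tested by two-sided exact permutation tests, with adjustment over the 6. Hhip fell relative to Ptch1. The log2 ratio of their counts was −1.83 ± 0.36 (SD, n = 7) in young and −3.12 ± 0.54 (SD, n = 6) in aged libraries, with no overlap, a difference of −1.30 (exact permutation p = 0.000583, the smallest possible; adjusted p = 0.00350). Ihh rose relative to Col10a1, the collagen of hypertrophic chondrocytes, from −5.08 ± 0.22 (SD, n = 7) to −3.82 ± 0.75 (SD, n = 6). That difference of 1.26 (exact permutation p = 0.00175, adjusted p = 0.00524) showed in all 6 aged libraries, each above the young median, although the lowest, aged replicate 4 at −4.90, was inside the young range. Col10a1 itself was lower in aged cartilage, with a log2 change of −1.43 ± 0.36 (SE, edgeR adjusted p = 0.00535).

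The other 4 ratios were not called. Ihh to Ptch1, ligand to receptor, was −1.48 ± 0.28 (SD, n = 7) in young and −1.73 ± 0.39 (SD, n = 6) in aged libraries, a difference of −0.24 (exact permutation p = 0.233, adjusted 0.466). Ptch1 to Smo, receptor to transducer, differed by 0.12 (exact permutation p = 0.413, adjusted 0.620). Gli1 to Gli3, activator to repressor, differed by 0.085 (exact permutation p = 0.562, adjusted 0.675). Gas1 to Boc, the 2 co-receptors, differed by 0.042 (exact permutation p = 0.720, adjusted 0.720). A p above the threshold does not show that these pairs kept the same proportion.

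**Figure D3:**
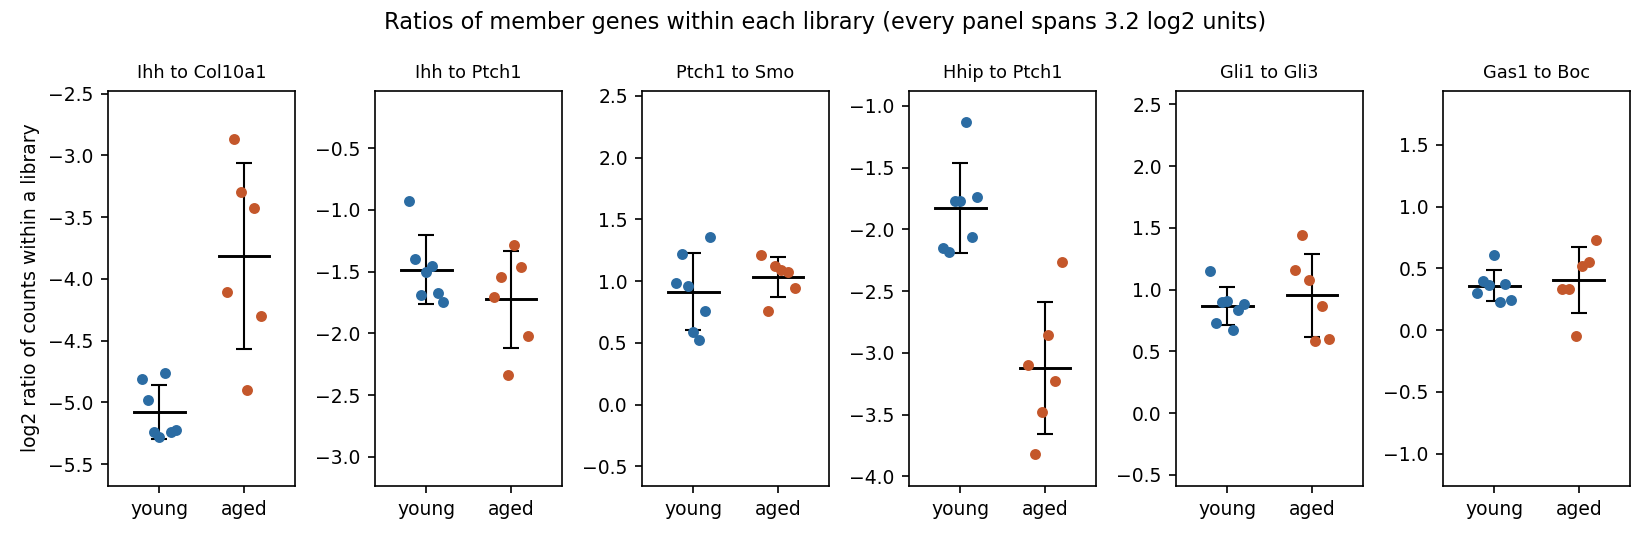
Log2 ratio of counts of 2 genes within each library (vertical axes, each spanning the same number of log2 units) for 7 young and 6 aged libraries. Points are libraries, lines are means and bars are SD. Hhip to Ptch1 separates the ages, Ihh to Col10a1 is shifted upwards by 1.26, and the other 4 ratios overlap widely.

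Hhip and Ptch1 are both known targets of the pathway and both limit the ligand, but Hhip fell relative to Ptch1, so their promoters are shown. The 250 bases upstream of each RefSeq start are printed from 5′ to 3′ on the gene's own strand, with CG dinucleotides in capitals, from RefSeq tables of build GRCm38.p6. Hhip lies on the minus strand at chr8:80058009-80058258 and Ptch1 on the minus strand at chr13:63565736-63565985.
Hhip: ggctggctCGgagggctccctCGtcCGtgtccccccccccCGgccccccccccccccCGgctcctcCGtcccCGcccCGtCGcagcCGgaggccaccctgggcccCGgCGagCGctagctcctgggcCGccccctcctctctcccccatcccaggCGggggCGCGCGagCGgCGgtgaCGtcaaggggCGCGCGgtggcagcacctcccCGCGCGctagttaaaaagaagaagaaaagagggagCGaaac
Ptch1: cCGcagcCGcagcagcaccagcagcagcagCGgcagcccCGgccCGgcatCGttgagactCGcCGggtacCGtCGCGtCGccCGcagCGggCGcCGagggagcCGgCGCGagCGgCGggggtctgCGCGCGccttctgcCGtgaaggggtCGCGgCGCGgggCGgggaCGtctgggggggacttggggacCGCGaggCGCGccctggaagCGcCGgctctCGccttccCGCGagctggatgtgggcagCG

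The Hhip stretch holds 28 CG dinucleotides and is 76.0% G or C, and the Ptch1 stretch holds 41 and is 78.4% G or C. Over 32851 RefSeq promoter windows the medians were 6 CG dinucleotides and 52.4%. Promoters of 7 members were matched by symbol in that table (Ihh, Ptch1, Smo, Gas1, Hhip, Gli2 and Gli3). They held 10 to 41 CG dinucleotides upstream of the start, all above that median. The GLI consensus GACCACCCA was searched on both strands from 250 bases before to 50 after the start, and 0 of the 7 windows held it, beside 0.253% of all windows of that length. This says only that these letters are not in these windows.

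Around the members, 51 further genes of the pathway were sorted by role, and 49 had enough counts to be tested. Of these 16 were lower (32.7%, beside 21.6% of all genes) and 8 higher (16.3%, beside 24.7%), and 25 were not called. The balance turned with the scaling, to 9 lower and 21 higher with library sizes alone. Their median log2 change was −0.052. Of the 49, 9 did not overlap between the ages (18.4%, beside 19.2% of all genes tested). These lists were drawn up with earlier results of the same data known, so their counts are a description. The counts by role that follow stand beside the same shares of all genes, 21.6% lower and 24.7% higher.

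Genes that make or release ligand moved both ways, 3 lower and 2 higher of 7 tested. Scube3, of a family of secreted proteins whose relative Scube2 frees lipid-bearing ligand from the producing cell, fell from between 34.0 and 69.3 CPM in young to between 5.47 and 12.4 CPM in aged libraries, a log2 change of −2.52 ± 0.23 (SE, edgeR adjusted p = 2.37e-06). Its relative Scube1 rose from between 113 and 162 CPM in young to between 209 and 533 CPM in aged libraries (log2 change 1.18, SE 0.20, edgeR adjusted p = 0.000381). Shh, the ligand of limb and neural tube, had 1 count over all young and 1 over all aged libraries and was not tested. Among 5 tested receptors and surface regulators 2 were lower and 1 higher. Cdon, a co-receptor related to Boc, rose from 101 ± 24.1 to 168 ± 52.3 CPM (log2 change 0.74 ± 0.19, SE, edgeR adjusted p = 0.00666), opposite to Boc and Gas1. Gpc3, a glypican that binds hedgehog ligand, had a log2 change of −1.07 ± 0.19 (SE, edgeR adjusted p = 0.000512).

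Cytoplasmic regulators of the GLI proteins included 5 lower and 1 higher of 12. Kif7, a cilium-tip kinesin that organises GLI and SUFU, fell from 26.3 to 29.6 CPM in young libraries to 16.1 to 22.1 CPM in aged ones, with no overlap and a log2 change of −0.63 ± 0.072 (SE, edgeR adjusted p = 1.15e-05). Btrc, part of the ligase that starts GLI processing, rose by 0.41 on the log2 scale (SE 0.075, edgeR adjusted p = 0.000564). Of 10 genes that build the cilium or act in it, 1 was lower, Tulp3, a ciliary trafficking protein, at −0.30 ± 0.090 (SE, edgeR adjusted p = 0.0139). Scaled by library sizes alone, Tulp3 lost its call (−0.069, adjusted p = 0.505), and the counts turned to 2 lower and 6 higher for the cytoplasmic regulators and 0 lower and 4 higher for the cilium genes.

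Genes reported as targets in other mesenchyme did not move together, with 3 higher and 2 lower of 7. Nkx3-2, a chondrocyte repressor of hypertrophy, had the largest rise, 1.05 ± 0.25 (log2, SE, edgeR adjusted p = 0.00362) at low levels of 1.65 ± 0.304 and 3.44 ± 1.53 CPM. Mycn, a growth-promoting factor, had the largest fall, −0.94 ± 0.20 (log2, SE, edgeR adjusted p = 0.00196). In the group around PTHrP and hypertrophy 3 of 8 were lower and 1 higher. Pthlh, low throughout, went from 2.20 ± 0.743 to 4.47 ± 3.04 CPM (log2 change 1.02 ± 0.34, SE, edgeR adjusted p = 0.0244), and without aged replicate 6 its value was 0.56 (adjusted p = 0.0640). Pth1r, the PTHrP receptor, was not called (−0.22 ± 0.11, SE, edgeR adjusted p = 0.116). It was 0.011 with library sizes alone, and −0.30 (adjusted p = 0.0273) without aged replicate 4. In a fit that added a score of erythroid and neutrophil markers, Scube3 kept its call (−1.92, adjusted p = 0.0170). That fit called 2086 of the 14067 genes tested, beside 6504 without the score. The other 10 named genes that had been called lost their calls there. Of these, Cdon (0.75), Btrc (0.44), Nkx3-2 (1.20), Mycn (−0.93) and Col10a1 (−1.97) had log2 changes close to or above their sizes without the score. Scube1 (0.91), Gpc3 (−0.53) and Kif7 (−0.27) had smaller ones, and Tulp3 (0.054) and Pthlh (−0.021) changed sign. The score ran from 3.39 to 5.09 in young and from 5.59 to 7.65 in aged libraries. Without overlap between the ages, that fit cannot tell age and score apart, and the part of blood cells in any of these differences was not tested.

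**Figure D4:**
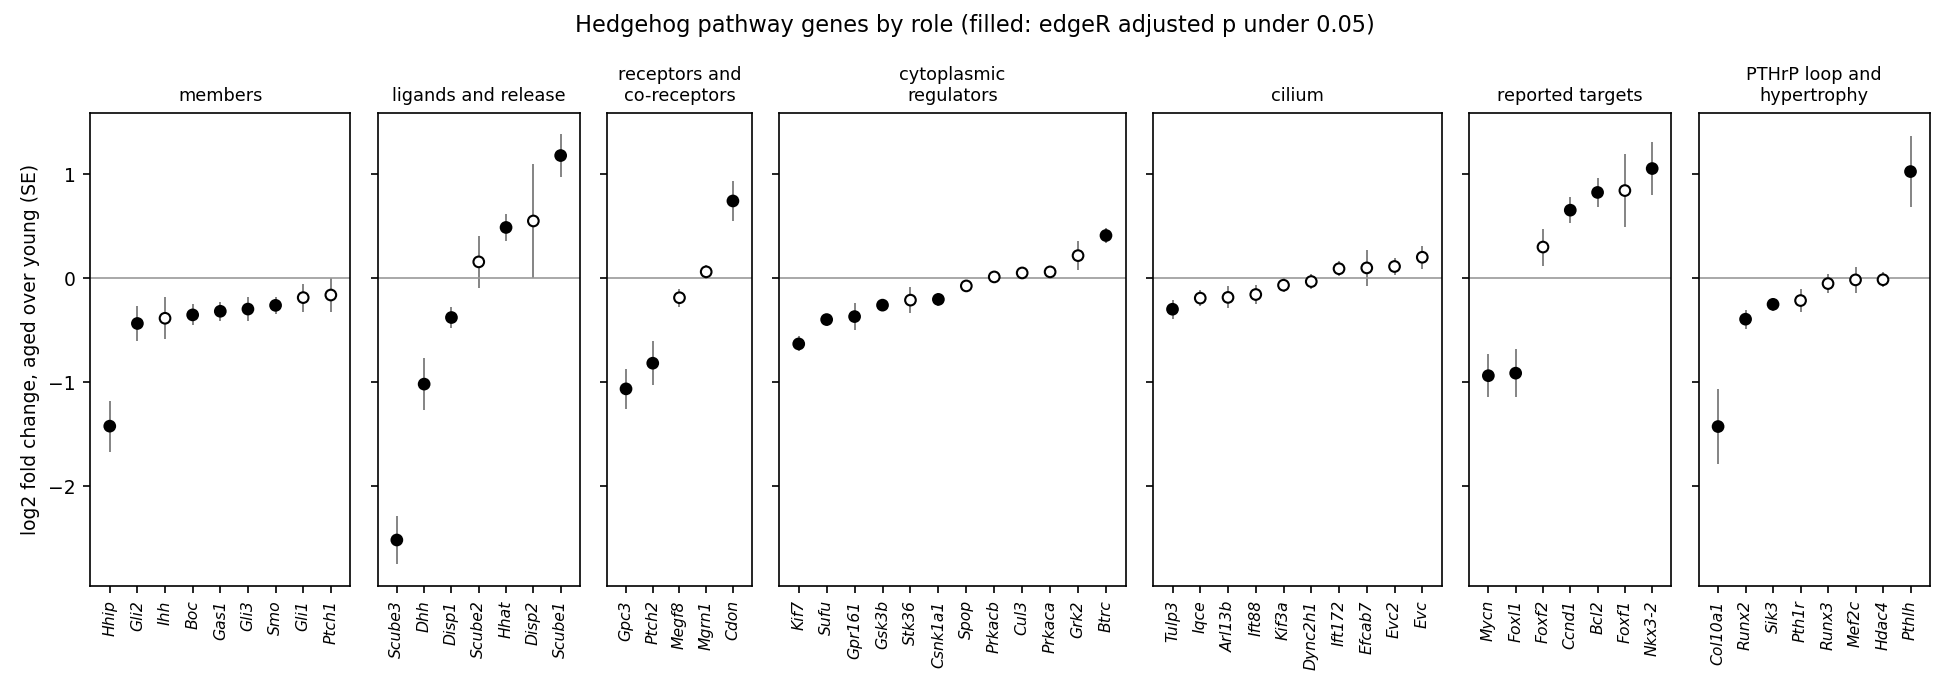
Log2 fold change, aged over young (vertical axis; bars are SE), of the 9 members and 49 other tested pathway genes, in panels by role; filled points had an edgeR adjusted p under 0.05. All 9 members lie below 0 with this scaling (Ptch1 and Gli1 did not with library sizes alone), while Scube1, Cdon, Nkx3-2 and Pthlh lie highest in their panels and Scube3 lies lowest of all, at −2.52.

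The members did not fall evenly over the aged libraries. Aged replicates 1, 2, 4 and 6 had 7 or 8 members below the lowest young library, replicate 5 had 4 and replicate 3 had 3. Relative to the young mean, the median over the 9 members was between −0.46 and −0.39 on the log2 scale in replicates 1, 2, 4 and 6, −0.20 in replicate 5 and 0.026 in replicate 3. Aged replicate 3 held the highest aged values of Ptch1, Smo, Boc, Gli1, Gli2 and Gli3. Its Hhip (31.5 CPM), Ihh (69.4 CPM) and Gas1 (79.7 CPM) lay below every young library.

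Blood marker levels are given beside these values. The erythroid and neutrophil score, the mean log2 CPM of 16 markers, was 5.59 in aged replicate 3, the lowest of its age. Aged replicates 2 and 5 had nearly the same score, 6.62 each, but medians of the members of −0.42 and −0.20. Aged replicates 4, 1 and 6 had scores of 7.28, 7.58 and 7.65, and medians of −0.39, −0.45 and −0.46. It was 3.39 to 5.09 in young libraries, so it did not overlap between the ages. Young replicates 3, 7 and 2 had scores of 3.39, 3.46 and 3.94, and medians of the members of 0.080, 0.14 and −0.032. Young replicates 6, 4 and 1 had scores of 4.46, 4.62 and 4.91, and medians of −0.16, −0.070 and −0.15. Young replicate 5, with the highest young score, had a median of 0.092. Whether the score and the member level go together was not tested. The muscle score ran from 6.87 to 9.54 in aged libraries, and aged replicate 3, at 9.27, was not at an extreme. With that erythroid and neutrophil score added to the model, edgeR called 0 of the 9 members, and at an unadjusted p under 0.05 there were 1 lower and 1 higher. Calls fell over all 14067 genes too, to 920 lower and 1166 higher, beside 3033 and 3471 without the score. The median of the members was then 0.049, and Hhip stood at −1.39 (adjusted p = 0.116). Gas1 stood at −0.39 (adjusted p = 0.203), farther from 0 than without the score, and at −0.62 (adjusted p = 0.291) with both scores. Boc stood at −0.044 with the erythroid and neutrophil score. With the muscle score 4 members were called lower (Hhip, Smo, Gas1 and Boc) and the median was −0.43. Over all genes that fit called 1802 lower and 2065 higher. The part of either cell source in the age differences was not tested.

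**Figure D5:**
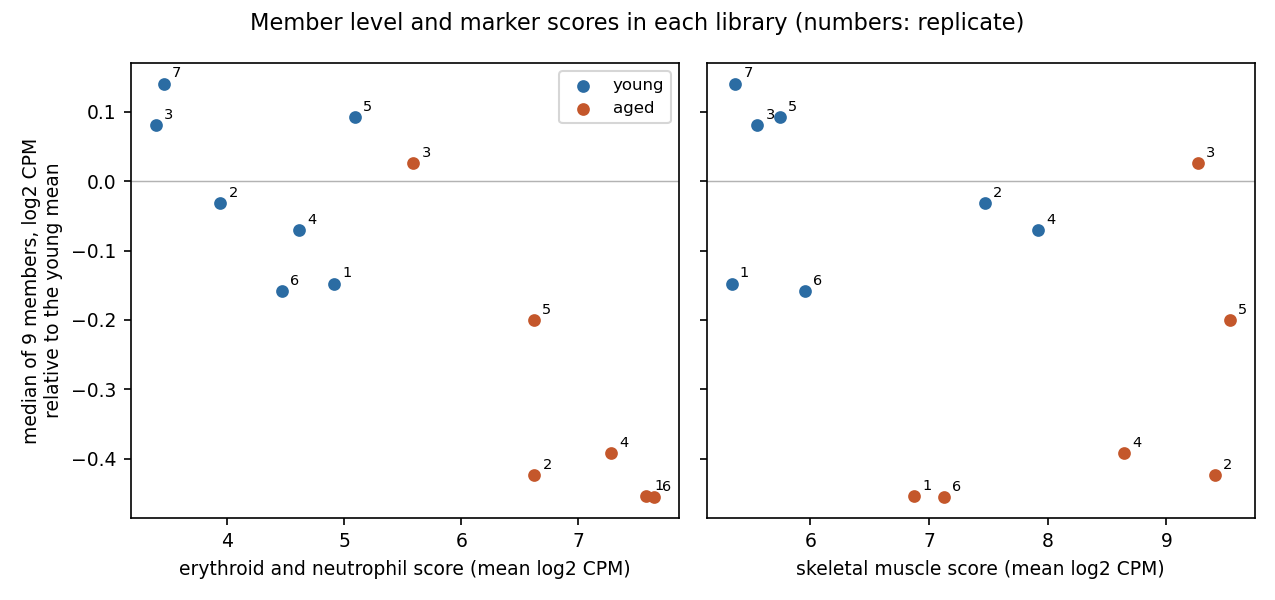
Median log2 CPM of the 9 members relative to the young mean (vertical axis) against the erythroid and neutrophil score (left) and the skeletal muscle score (right; both mean log2 CPM) in 7 young and 6 aged libraries, numbered by replicate. Aged replicate 3, at 0.026, lies among the young libraries and has the lowest erythroid and neutrophil score of its age. Aged replicates 2 and 5 share a score of 6.62 and lie at −0.42 and −0.20.

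Some members varied more between aged than between young libraries. The coefficient of variation was 9.03% in young and 30.9% in aged libraries for Gli2, 8.57% and 25.8% for Gli1 and 6.30% and 14.9% for Smo. The highest aged value of each of these genes was in replicate 3. For Gli3 (12.6% and 18.2%) and Boc (11.3% and 16.1%) it was also larger in aged libraries, and for Ptch1 (24.7% and 20.7%) it was smaller. For Ihh (26.4% and 29.4%) and Hhip (30.3% and 31.9%) it was high at each age, and for Gas1 (12.4% and 11.6%) it was low. Whether the spread differs with age was not tested.

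The genes whose values followed a member most closely were found from the deviations of each library from its age mean, over 13 libraries and 9040 candidate genes. For Ihh they were Scin, which encodes an actin-severing protein (Pearson r = 0.900, Spearman rho = 0.863), Eps8l2 (r = 0.876, rho = 0.874) and Grb14, an adaptor of the insulin receptor (r = 0.865, rho = 0.791). Their own age differences were unlike one another, at −0.090, 0.45 and −0.82 on the log2 scale. For Ptch1 they were Klhl13, an adaptor of the CUL3 ubiquitin ligase (r = 0.942, rho = 0.951), Utrn, which encodes utrophin (r = 0.936, rho = 0.824), and Btbd3 (r = 0.923, rho = 0.896). For Gli1 they were Mecr (r = 0.939, rho = 0.808), Gpsm1 (r = 0.936, rho = 0.841) and Mrtfb, a coactivator of serum response factor (r = 0.933, rho = 0.912). The 9 genes are the best of many candidates in few libraries that share depth and tissue make-up, so the values are a description.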

How the data were processed

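Messenger RNA of 7 young and 6 aged libraries was sequenced. Per the labels' protocols, total RNA came from TRIzol extraction, polyadenylated RNA was picked with oligo(dT), and libraries kept strand and were read from both ends on a DNBSEQ instrument. The submitters' processing notes name RSEM 1.3.1, Bowtie2 2.3.4.3, DESeq2 1.4.5, HISAT2 2.1.0 and build GRCm39 but no roles or order. No annotation is named in the sources used here. The authors deposited expected counts (5.30% of values not whole), FPKM and TPM for each library, per the file headers. FPKM and TPM were normalised by the authors for length and depth.

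Groups came from the ages in the sample titles. Expected counts were rounded, and edgeR 4.0.16 (R 4.3.3) was run with filterByExpr (minimum count 10, minimum total 15), TMM, glmQLFit with robust estimation, glmQLFTest, and Benjamini-Hochberg adjustment over 14067 genes at 0.05. CPM values use TMM-scaled library sizes, and log2 CPM a prior count of 2. The SE is the fold change divided by the square root of F. Ratios used rounded counts + 0.5. Alternatives used limma 3.58.1 (log2 of FPKM or TPM plus a pseudocount, and voom) and DESeq2 1.42.0. Counts were simulated for 14067 genes, 200 of them changed by 1.5-fold or more. From these, edgeR recovered 56% of genes changed 1.5-fold and 92% of those changed 2-fold, with 5.95% of its calls false. In the data 6504 genes were called, and the called members other than Hhip differed 1.20- to 1.35-fold. The simulation held no such setting, so its rates cannot be taken as those of the member calls. Libraries of an age differed by more than sampling noise (chi-square per degree of freedom at least 10.25), so none was treated as a duplicate.

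Members and gene lists were chosen with earlier results of these data known. Named genes were all members, the largest called rise and fall of each pathway list, Pthlh, Pth1r and Col10a1, and, for Ihh, Ptch1 and Gli1, the 3 genes of mean FPKM at least 5 with the highest Pearson r. Shh and Plin1 were named after their values were seen. Plots used Python 3.11.15 and matplotlib 3.10.9.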

Additional observations from a re-analysis of the deposited data

Results flagged for a closer look

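Among 30 sets of values (9 members and 6 ratios at each age), 2 had a library far from the others by Dixon's criterion at the 95% level, where chance flags about 1 set in 20. The log2 ratio of Ihh to Ptch1 was −0.93 in young replicate 1, and the next highest young library was at −1.40. The log2 ratio of Hhip to Ptch1 was −1.13 in young replicate 5, and the next highest young library was at −1.73. Without young replicate 5 the age difference in the Hhip to Ptch1 ratio kept its call.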

How the results depend on the processing

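No member was called higher in any of the 28 alternatives. The count of 6 called lower held with no filter, a stricter filter, RLE or upper quartile scaling, DESeq2 and limma-voom with or without library weights. It was 1 with library sizes alone, 1 with limma on log2(FPKM + 1), 1 on log2(FPKM + 0.1), 2 on log2(TPM + 1), and 0 with the erythroid and neutrophil score alone or with both scores. In that order, these fits called 1253, 1361, 1366, 2211, 920 and 35 of all 14067 genes lower, beside 3033 in the main fit. The cause was not tested. Hhip, Smo, Gas1 and Boc were called without any 1 library.

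Signs turned in these cases, none of them called. Ptch1 was at 0.069 with library sizes alone, 0.068 and 0.070 on the FPKM scales, 0.67 with the erythroid and neutrophil score, and 0.95 once the muscle score was added. Gli1 was at 0.043 with library sizes alone, 0.37 with the blood-cell score and 0.40 with the pair. In those same 2 fits Gli2 was at 0.20 and 0.22, Gli3 at 0.049 and 0.081 and Smo at 0.12 and 0.036. Leaving out 1 library at a time, the Gli1 to Gli3 ratio ran from −0.012 (without aged replicate 2) to 0.16 and the Gas1 to Boc ratio from −0.022 (without aged replicate 6) to 0.13.

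With the replicate number as a block 6 members were called lower, the same ones, and Pthlh lost its call (0.90, adjusted p = 0.0912). The paired differences of the ratios were 1.24 for Ihh to Col10a1 and −1.28 for Hhip to Ptch1 (exact sign-flip adjusted p = 0.0938 for both, where 6 pairs allow no unadjusted p under 0.0313; 0.00350 to 0.00524 under the alternatives that use all libraries). Same-numbered libraries correlated at −0.12 to 0.258 and only 2 of 6 young libraries matched their own number best, so the numbers were not taken as pairs. Depth gave at least 231 counts per library for each member. The part of counting error in the spread between libraries was not tested.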
